A study of Mus musculus with 36 samples.

Results

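The late phase of the endotoxin response was examined in mouse liver at 30 °C, as the change between 12 and 24 h after injection of lipopolysaccharide (LPS), the outer-membrane glycolipid of Gram-negative bacteria. The comparison used 9 of the 36 liver libraries of the study. They were all the libraries labelled 30 °C and 12 h (4 libraries) or 30 °C and 24 h (5 libraries). All mice were of the C57BL6/J strain and carried no stated allele, transgene or further treatment. Within each series of times, mice were kept at 22 °C, ordinary room temperature, or at 30 °C, where mice spend little energy on keeping warm. Libraries taken before LPS at 30 °C (0 h, 5 libraries) and the same step at 22 °C (5 libraries at 12 h and 5 at 24 h) were used for reference. Sex, age, LPS dose, time of day and whether each library came from a separate animal were not given in the sources used here, so the p-values measure only the spread between libraries.

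LPS is sensed by Toll-like receptor 4 on liver macrophages, endothelial cells and hepatocytes. An early wave of cytokines is followed by interferon signalling, which acts through STAT proteins and interferon regulatory factors, and by the acute phase response, in which hepatocytes secrete defence proteins under IL-6, STAT3 and C/EBP. During that response hepatocytes lower many of their metabolic genes, among them those for drug, bile acid and amino acid metabolism. The step from 12 to 24 h asks which of these programmes had ended, which went on and which metabolic genes had moved back.

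Values are scaled reads per base of each gene, called signal here. Differences were taken on log2(signal + 1), so those of genes with low signal are understated. The 12 h libraries held 934000 to 1100000 estimated reads and the 24 h libraries 710000 to 2295000, so 3 reads correspond to a signal of 2.48 to 2.95 at 12 h and of 1.51 to 4.35 at 24 h. The defining hepatocyte markers of the labelled tissue were high, with Alb between 697 and 1312 and Apoa1 between 1050 and 2560 across both groups. Log2 signal correlated between libraries of a group at 0.911 to 0.922 at 12 h and at 0.880 to 0.932 at 24 h, against 0.807 to 0.875 between the groups. No library was a copy of another. The sum of all signals was 828054 to 917457 at 12 h and 970131 to 1153720 at 24 h.

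Between 12 and 24 h at 30 °C, 1834 of the 8702 genes tested changed (21.1%, limma adjusted p under 0.05). Of these 1006 rose (11.6%) and 828 fell (9.52%), and 570 rises and 497 falls exceeded 1 log2 unit. The median difference of all tested genes was -0.05. The 10 largest rises among named genes with a group mean of at least 20 were Clec14a at 4.60, Enho at 4.45, Bhmt at 4.23, Gpd1 at 3.77, Cyp4a31 at 3.64, Cacna1d at 3.59, Adra1b at 3.59, Cyp8b1 at 3.52, Cth at 3.50 and Emc9 at 3.47 log2 units. They include enzymes of methionine metabolism (Bhmt, Cth), fatty acid hydroxylation (Cyp4a31), bile acid synthesis (Cyp8b1) and glycerol phosphate metabolism (Gpd1). The others are an endothelial lectin (Clec14a), the peptide hormone precursor Enho, a calcium channel subunit (Cacna1d), an adrenergic receptor (Adra1b) and a subunit of the ER membrane complex (Emc9). The 10 largest falls were Tgtp1 at -5.90, Gbp2 at -4.84, Car3 at -4.68, Serpina6 at -4.08, Gbp5 at -4.04, Inmt at -3.66, Socs1 at -3.65, Igtp at -3.61, Ifi47 at -3.60 and Gbp3 at -3.57. Among them 7 are interferon-induced genes, and the other 3, Car3, Serpina6 and Inmt, are genes of the unstimulated hepatocyte. Groups of genes are described below by how many of their tested members rose or fell, to be read against the 11.6% and 9.52% of all genes. Lack of overlap between the 12 and 24 h libraries, given below for single genes, was common. It held for 1897 of the 8702 genes (21.8%), with 24 h higher for 11.7% and lower for 10.1%.

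**Figure D1:**
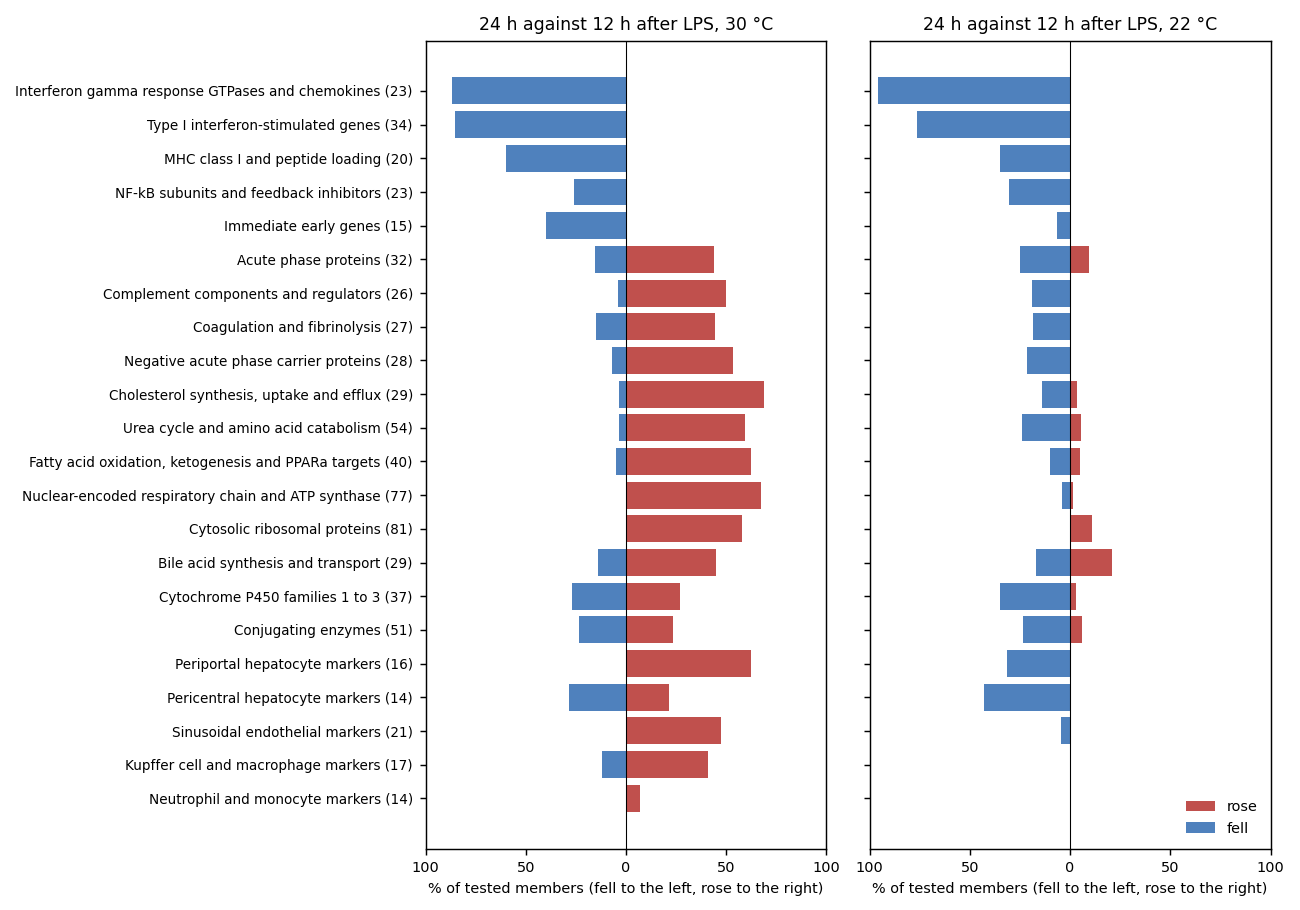
Share of the tested members of each gene list that rose (right, red) or fell (left, blue) between 12 and 24 h at 30 °C (left panel) and at 22 °C (right panel), with the number tested in brackets and limma adjusted p under 0.05 as the threshold. Interferon lists fell at both temperatures, while rises in amino acid, lipid, cholesterol and respiratory chain lists stand in the 30 °C panel.

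The interferon genes fell together. Of 23 tested genes of the interferon gamma response (GTPases and chemokines), 20 fell and none rose, with a median difference of -2.76. Of 34 type I interferon-stimulated genes 29 fell and none rose (median -1.78), and of 20 genes of MHC class I and peptide loading 12 fell and none rose (median -0.71). At 12 h these lists had stood above 0 h, with 21 of 23, 22 of 34 and 16 of 20 members higher; of all genes 38.3% differed at 12 h from 0 h, 19.3% being higher. At 24 h 1, 3 and 4 members were higher than at 0 h and 6, 6 and 1 were lower, where 29.7% of all genes differed, 15.3% being higher and 14.4% lower.

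Many promoters of these genes hold the core of the interferon-stimulated response element, a DNA site of interferon regulatory factors. In windows from 250 bases before to 50 bases after the gene start (RefSeq, GRCm38.p6), the letters TTTC, any 2 bases and again TTTC, searched on both strands, occurred in 11 of the 14 interferon gamma genes that have an entry (78.6%). They occurred in 14 of 25 type I genes (56.0%) and in 5 of 18 MHC class I genes (27.8%), against 3.99% of all 27025 promoters and 4.22% of the 6652 promoters of tested genes. The promoters of Gbp7 and Gbp2, guanylate-binding proteins, and of Isg15, a ubiquitin-like modifier, are printed 5′ to 3′ along the gene's strand because these genes hold the core and are among the members of smallest p. Capitals mark the core, which lies 53 bases before the start of Gbp7 and 59 before that of Gbp2. In Isg15 the capitals cover 3 overlapping copies on the opposite strand, the first 78 bases before the start. A match is a description of the letters and not a measured binding site. The windows are chr3:142530086-142530385, plus strand (Gbp7), chr3:142620413-142620712, plus strand (Gbp2) and chr4:156200769-156201068, minus strand (Isg15).
Gbp7: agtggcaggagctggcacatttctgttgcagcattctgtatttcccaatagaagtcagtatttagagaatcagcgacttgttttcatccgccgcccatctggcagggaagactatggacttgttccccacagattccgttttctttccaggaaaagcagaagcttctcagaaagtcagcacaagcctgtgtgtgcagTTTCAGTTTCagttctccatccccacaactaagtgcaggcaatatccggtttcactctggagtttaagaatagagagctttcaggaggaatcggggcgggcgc
Gbp2: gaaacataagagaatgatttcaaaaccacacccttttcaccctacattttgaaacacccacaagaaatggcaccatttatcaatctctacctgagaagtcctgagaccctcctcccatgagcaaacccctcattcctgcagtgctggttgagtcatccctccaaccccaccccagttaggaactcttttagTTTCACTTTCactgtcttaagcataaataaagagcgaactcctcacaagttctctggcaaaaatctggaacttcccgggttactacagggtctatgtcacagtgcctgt
Isg15: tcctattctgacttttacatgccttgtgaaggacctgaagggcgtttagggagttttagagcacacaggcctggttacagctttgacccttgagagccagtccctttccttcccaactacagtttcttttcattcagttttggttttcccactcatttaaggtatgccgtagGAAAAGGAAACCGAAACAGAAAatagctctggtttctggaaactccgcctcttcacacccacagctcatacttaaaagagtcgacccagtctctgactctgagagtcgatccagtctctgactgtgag

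Gbp2, a large GTPase that coats intracellular pathogens, had signals of 837, 550.2, 838 and 835 at 12 h and of 20.4, 32, 30.4, 33.9 and 15.2 at 24 h. The groups were far apart, and the 0 h mean was 29.9 ± 14.9 (SD, n = 5). The difference was -4.84 ± 0.27 log2 units (SE; limma adjusted p = 2.5e-15). Gbp7, whose promoter carries the same core, went from 486, 364, 656 and 675 to 36.3, 57, 42.6, 48.1 and 42.2, a difference of -3.53 ± 0.18 (limma adjusted p = 4.6e-16). Its 24 h values lay below the 0 h mean of 105 ± 28.4 (SD, n = 5), and the limma difference of 24 h from 0 h was -1.17 ± 0.17 (adjusted p = 1.6e-06). The guanylate-binding proteins are a family of close paralogs, and short reads near the 3′ end could have been divided among them by the authors' quantification.

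The immunity-related GTPases, which act on the vacuoles of intracellular parasites, showed the same order. Igtp had signals of 896, 617, 808 and 773 at 12 h and 76.6, 74.7, 60.2, 51.8 and 50.8 at 24 h (difference -3.61 ± 0.21, limma adjusted p = 1.5e-14), beside 72 ± 14.5 at 0 h (SD, n = 5). Iigp1 went from 2488, 2448, 2542 and 2524 to 305, 180.4, 266, 259 and 232 (difference -3.35 ± 0.20, limma adjusted p = 1.2e-14). The groups did not overlap for either gene. Tgtp1, another member, was at 160.1, 85.6, 50.6 and 150.3 at 12 h and at 0.112, 0.103, 0.155, 0.0436 and 8.84 at 24 h, so 4 of 5 late libraries were below the signal of 1 read and the fifth was not. Its difference was -5.90 ± 0.53 (limma adjusted p = 4.0e-10); its near-identical copy Tgtp2 did not pass the threshold, and reads may have been divided between them. Ifi47 fell by 3.60 ± 0.22 (limma adjusted p = 1.6e-14).

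Chemokines that draw T and NK cells fell to different depths. Cxcl10 had signals of 125, 124, 128 and 181 at 12 h and of 14, 19.6, 34.3, 6.50 and 13.6 at 24 h, a difference of -3.08 ± 0.37 (limma adjusted p = 1.1e-07). Cxcl9 was at 1098, 1183, 1377 and 1135 and then at 475, 391, 373, 257 and 401, a difference of -1.68 ± 0.16 (limma adjusted p = 1.8e-09). All late Cxcl10 values were below the 0 h mean of 45.3 ± 19.6 (SD, n = 5), whereas all late Cxcl9 values stayed above its 0 h mean of 45.1 ± 7.13. Socs1, the feedback inhibitor of JAK kinases, fell from 412, 200.2, 317 and 284 to 16.6, 31.9, 11.6, 25.9 and 34.7, without overlap (-3.65 ± 0.42, limma adjusted p = 7.9e-08).

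Among the type I genes, Isg15 went from 243, 213, 219 and 284 to 30.1, 30.6, 23.1, 31.3 and 39.1, a difference of -2.93 ± 0.28 (limma adjusted p = 1.2e-09), with a 0 h mean of 39.7 ± 19.6 (SD, n = 5). Xaf1, a pro-apoptotic interferon target, fell by 2.63 ± 0.31 (limma adjusted p = 9.4e-08). The immunoproteasome and the peptide transporter, which prepare antigens for MHC class I, fell as well. Psmb9 went from 134, 94, 77.3 and 62.3 to 9.07, 13.5, 5.42, 14.3 and 16.2 (-2.90 ± 0.49, limma adjusted p = 4.3e-05). Psmb10 changed by -2.55 ± 0.25 and Tap1 by -2.08 ± 0.23 (limma adjusted p = 1.8e-09 and 4.6e-08), and none of these 3 genes overlapped between the groups. Of the 32 constitutive proteasome subunits 7 fell and none rose; 4 fell without replicate 1 or without replicate 3 of 12 h, and 11 with library weights.

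**Figure D2:**
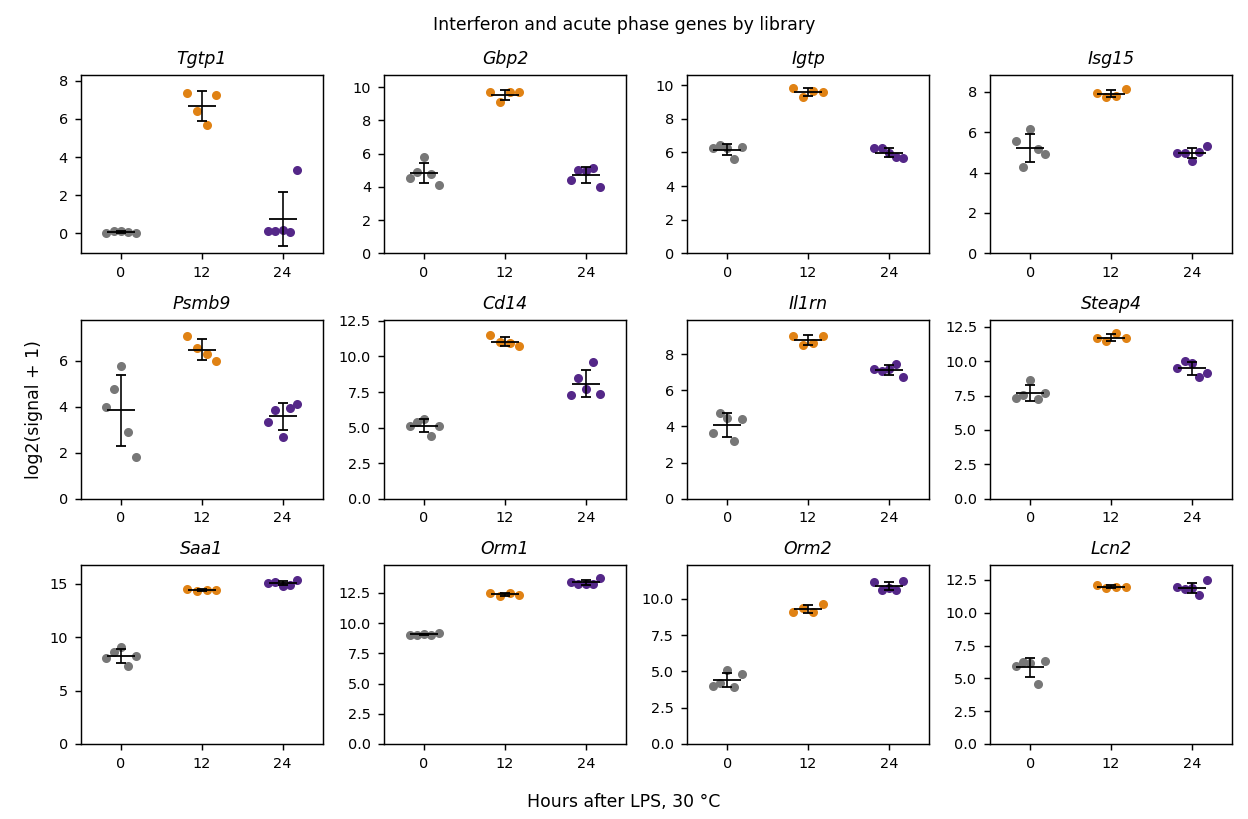
Log2(signal + 1) of 12 inflammatory genes in each 30 °C library at 0 h (grey, 5 libraries), 12 h (orange, 4) and 24 h (purple, 5), where bars show the mean and SD of each group. Interferon genes (upper panels) are near their 0 h level at 24 h, Cd14, Il1rn and Steap4 lie between, and Saa1, Orm1, Orm2 and Lcn2 are at or above their 12 h level.

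Some of the upstream inflammatory genes fell. Of 23 NF-kB subunits and feedback inhibitors 6 fell and none rose (median -0.57), of 18 genes of IL-1 and IL-6 signalling 6 fell and none rose (median -0.45), and of 10 LPS and Toll-like receptor genes 2 fell. Without replicate 5 of 24 h, 3 of the NF-kB genes fell. Of 19 cytokines and chemokines 2 rose and 2 fell. Stat3, the transcription factor downstream of IL-6, went from 164, 149, 157 and 164 to 88.7, 109.6, 107, 96 and 92.1 and remained above its 0 h mean of 49.2 ± 8.88 (SD, n = 5) in every library (-0.68 ± 0.17, limma adjusted p = 0.0031). Of 15 immediate early genes 6 fell and none rose. One of them was Jun, a subunit of AP-1, at 730.0, 799.8, 788 and 782 and then 129, 312, 351, 340.2 and 229 (-1.59 ± 0.45, limma adjusted p = 0.011). Hif1a, the oxygen-regulated transcription factor, fell from 99.4, 98.6, 96.8 and 101 to 26.8, 50.6, 25.3, 37.9 and 26.7 (-1.59 ± 0.24, limma adjusted p = 1.0e-05).

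The acute phase genes divided. Of 32 tested, 14 rose further and 5 fell (median 0.40), and 29 of 32 were past the threshold above 0 h at 24 h. This balance depended on scaling: under quantile normalisation 6 rose and 7 fell, with a median of -0.0093. The rises numbered 9 with no filter on low values and 8 to 15 when single libraries were left out, the lowest being 8 without replicate 2 of 12 h and 9 without replicate 5 of 24 h. The 5 that fell were Cd14, Steap4, Il1rn, Lbp and Serpina10. Cd14, the LPS co-receptor, had signals of 2912, 2039, 1977 and 1720.1 at 12 h and of 159, 350.1, 212, 764 and 162 at 24 h, without overlap (-2.96 ± 0.29, limma adjusted p = 3.0e-09). The late values varied among themselves, and all exceeded the 0 h mean of 35 ± 10.1 (SD, n = 5). Il1rn, the IL-1 receptor antagonist, went from 510.3, 362, 394 and 519 to 144, 132, 146, 174 and 105 (-1.66 ± 0.22, limma adjusted p = 1.0e-06). Steap4, a metalloreductase induced by cytokines, went from 3337, 2759, 4164 and 3303 to 729, 1043, 915, 466 and 548 (-2.24 ± 0.27, limma adjusted p = 1.1e-07).

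Other acute phase genes rose or held their level. Orm2, an orosomucoid that binds drugs and lipids in plasma, had signals of 549.9, 661, 550.1 and 811 at 12 h and of 2281, 1599, 1749, 1573 and 2474 at 24 h, from a 0 h mean of 21.4 ± 8.32 (SD, n = 5). Every late library was above every 12 h library (1.58 ± 0.26, limma adjusted p = 2.0e-05). Orm1 rose from 5752, 4728, 5749 and 5100.5 to 10832, 9656, 9871, 9765 and 13508 (1.00 ± 0.12, limma adjusted p = 1.1e-07). Orm1 and Orm2 are close paralogs and may share reads. Saa1, serum amyloid A, was at 23376, 20854, 21926 and 21192 and then at 33979, 37211, 29181, 29999 and 43060.5 (0.65 ± 0.20, limma adjusted p = 0.019), but under quantile normalisation its difference was 0.22 (limma adjusted p = 0.52). That call was also lost without replicate 2 of 12 h or replicate 5 of 24 h (limma adjusted p = 0.051 and 0.060). Hp, haptoglobin, differed by 0.43 ± 0.15 (limma adjusted p = 0.035) with overlapping groups, and this call was lost under 9 of the alternatives. Saa3 and Lcn2, the iron-sequestering lipocalin, did not pass the threshold. Their differences were 0.24 (95% interval -0.36 to 0.85) and -0.09 (95% interval -0.54 to 0.35), and both genes stood at a signal of 2631 or more in every late library. Mt2, a metallothionein, likewise was at 3063, 2939, 3061, 5806 and 4069 at 24 h, with a difference of -0.18 (95% interval -0.63 to 0.28).

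Another motif was counted in the acute phase list. The letters TTGCNNAA, found in sites of C/EBP transcription factors and searched on both strands, occurred in 13 of the 23 acute phase promoters with an entry (56.5%), in 12.2% of all promoters and in 10.9% of those of tested genes. Promoters with these letters belonged to genes that fell as well as to genes that rose. Shown are 1 of each kind, Steap4, which fell, and Orm2, which rose, with the match in capitals 87 and 120 bases before the gene start (RefSeq, GRCm38.p6; chr5:7960222-7960521, plus strand, and chr4:63362199-63362498, plus strand). Cebpb, which encodes one of the factors, fell from 521 ± 52.4 (SD, n = 4) to 252 ± 30.0 (SD, n = 5), by 1.05 ± 0.21 (limma adjusted p = 3.8e-04).
Steap4: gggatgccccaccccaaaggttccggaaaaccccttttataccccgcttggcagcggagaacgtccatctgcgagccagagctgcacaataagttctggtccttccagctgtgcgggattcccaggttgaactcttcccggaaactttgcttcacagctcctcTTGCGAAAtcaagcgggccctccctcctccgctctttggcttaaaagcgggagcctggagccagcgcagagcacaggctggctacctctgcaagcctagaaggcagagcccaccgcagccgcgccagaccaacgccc
Orm2: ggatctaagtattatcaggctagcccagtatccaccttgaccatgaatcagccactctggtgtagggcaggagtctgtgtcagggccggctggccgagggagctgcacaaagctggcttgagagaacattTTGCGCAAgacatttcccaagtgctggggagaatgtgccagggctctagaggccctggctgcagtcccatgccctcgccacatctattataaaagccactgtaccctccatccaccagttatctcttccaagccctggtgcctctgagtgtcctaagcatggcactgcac

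Amino acid metabolism rose as a group. Of 54 tested genes of amino acid breakdown and the urea cycle 32 rose and 2 fell, Otc and Cdo1 (median 1.05). At 12 h, 35 of the 54 had been below 0 h and 9 above (18.9% and 19.3% of all genes). At 24 h, 24 of the 54 were below 0 h and 16 above (14.4% and 15.3% of all genes). Bhmt, which remethylates homocysteine with betaine, had signals of 162, 297, 359 and 109.7 at 12 h and of 5820.0, 2265, 7879, 1460.3 and 6117 at 24 h, beside 1699 ± 254 at 0 h (SD, n = 5). The groups did not overlap (4.23 ± 0.40, limma adjusted p = 1.3e-09), while the late values spread over a wide range. Cth, which makes cysteine from cystathionine, went from 6.63, 13.7, 9.30 and 6.21 to 126, 105, 240.4, 56.9 and 77.3 (3.50 ± 0.44, limma adjusted p = 3.1e-07). Cps1, the entry enzyme of the urea cycle, went from 1110.2, 706, 942 and 627 to 2426, 1938, 2294, 1997 and 2806 (1.46 ± 0.24, limma adjusted p = 2.9e-05), with a 0 h mean of 2252 ± 550.1 (SD, n = 5). Hgd, of tyrosine breakdown, rose by 1.96 ± 0.26 and Gldc, of glycine cleavage, by 2.93 ± 0.45 (limma adjusted p = 7.4e-07 and 1.0e-05).

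Markers of position along the liver lobule were counted as well. Of 16 periportal hepatocyte markers, several of which are amino acid enzymes, 10 rose and none fell (median 1.07). Of 14 pericentral markers 3 rose and 4 fell (median 0.40). Glul, glutamine synthetase of the hepatocytes next to the central vein, fell from 45.2, 48.4, 57.7 and 56 to 15.7, 17.5, 21.1, 13.3 and 16.2 (-1.58 ± 0.31, limma adjusted p = 3.0e-04), whereas the ethanol-oxidising Cyp2e1 went from 698, 846, 809.9 and 642 to 1678, 988, 2231, 817 and 2733. That gene rose by 1.03 ± 0.25 (limma adjusted p = 0.0031), with overlap at the lowest late library. Whether zonal position itself goes with the step was not tested.

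Fatty acid oxidation and ketogenesis rose. Of 40 genes of this list, which includes targets of the nuclear receptor PPARa, 25 rose and 2 fell, Ppara itself and Pdk4 (median 0.88). Cyp4a14, a fatty acid omega-hydroxylase and PPARa target, had signals of 276, 239.5, 225 and 303 at 12 h and of 1762, 1515, 2966, 2088 and 2621 at 24 h (3.03 ± 0.32, limma adjusted p = 1.3e-08). Every late value exceeded the 0 h mean of 895 ± 310.4 (SD, n = 5). Its paralog Cyp4a10 rose by 2.85 ± 0.36 (limma adjusted p = 4.1e-07), and the 2 genes, together with Cyp4a31, may share reads. Bdh1, a ketogenic enzyme, rose by 1.94 ± 0.25 and Acaa2, the mitochondrial thiolase, by 1.08 ± 0.14 (limma adjusted p = 4.0e-07 and 4.0e-07). Cpt1a, the gate of mitochondrial fatty acid entry, did not pass the threshold (-0.18, 95% interval -0.70 to 0.34).

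The energy machinery of the mitochondrion moved likewise. Of 77 nuclear-encoded subunits of the respiratory chain and ATP synthase 52 rose and none fell (median 0.68). Ndufc1 of complex I went from 61.7, 100.5, 132 and 89.8 to 216, 283, 280.3, 264 and 338 (1.55 ± 0.23, limma adjusted p = 6.0e-06), and Atp5o of the ATP synthase from 153, 117, 126 and 122 to 274, 243, 299, 236 and 327 (1.08 ± 0.18, limma adjusted p = 4.0e-05). The groups were apart for both. None of the 13 transcripts of the mitochondrial genome passed the limma threshold in either direction (2 had an unadjusted p under 0.05, and 1 rose with library weights or without replicate 2 of 24 h), and their share of all signal was 7.92% to 9.98% at 12 h and 7.86% to 10.0% at 24 h.

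Cholesterol and lipid genes followed. Of 29 genes of cholesterol synthesis, uptake and efflux, which the transcription factor SREBP2 drives in large part, 20 rose and 1 fell (median 1.12). Msmo1, a sterol oxidase of the late pathway, had signals of 137, 138, 135 and 115 at 12 h and of 349, 330.0, 425, 327 and 520.5 at 24 h, all above the 0 h mean of 107 ± 24.8 (SD, n = 5; 1.55 ± 0.25, limma adjusted p = 1.7e-05). Insig2, which retains the SREBP complex, rose by 2.00 ± 0.26 (limma adjusted p = 4.7e-07). The 1 gene that fell was Abca1, the cholesterol exporter, at 1209, 1201, 1141 and 1217 and then 489, 682, 496, 703 and 586 (-1.03 ± 0.16, limma adjusted p = 9.5e-06). The sterol regulatory element, searched as a motif of 10 letters, occurred in 0 of the 19 cholesterol promoters with an entry. It occurred in 0.0999% of all promoters. At that rate a count of 0 is uninformative, and control by SREBP2 was not tested.

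Of 11 genes that desaturate and elongate polyunsaturated fatty acids 6 rose and none fell (median 0.86). Fads1, the delta-5 desaturase, went from 25.5, 25.4, 36.4 and 35.1 to 118, 84.2, 119, 94.9 and 177 (1.89 ± 0.20, limma adjusted p = 1.1e-08). Of 19 genes of de novo lipogenesis 4 rose and 2 fell (median -0.18). Only 1 rose without replicate 1 or replicate 2 of 12 h and with no filter on low values, and 2 rose without replicate 4 of 12 h or replicate 1, 2 or 5 of 24 h. The median of this list changed sign, to 0.40 among genes with a mean of at least 20, to 0.11 without replicate 4 of 12 h and to 0.08 without replicate 3 of 24 h. Scd1, which makes oleate, had a 0 h mean of 6313 ± 2175 (SD, n = 5) and signals of 1099, 1372, 2401 and 1155 at 12 h and 172, 250.2, 199, 264 and 296 at 24 h (-2.62 ± 0.36, limma adjusted p = 2.0e-06). Thrsp, a lipogenic regulator, fell by 1.71 ± 0.39 (limma adjusted p = 0.0013). Fabp1, the liver fatty acid-binding protein, rose from 261, 316, 328 and 294 to 976, 793, 1713, 827 and 1502 (1.88 ± 0.28, limma adjusted p = 7.1e-06), short of its 0 h mean of 2489 ± 437 (SD, n = 5). Of 19 lipid droplet genes 7 rose and none fell, and of 22 apolipoprotein and lipoprotein assembly genes 9 rose and 2 fell. Apoa4, a fasting- and lipid-induced apolipoprotein, rose by 1.42 ± 0.26 (limma adjusted p = 9.2e-05) to 1095, 1069, 1049, 2298 and 1278, from 20.6 ± 6.39 at 0 h (SD, n = 5).

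Carbohydrate genes moved in part. Of 27 genes of gluconeogenesis, glycogen and insulin signalling 7 rose and 2 fell (median 0.17). Slc2a2, the hepatocyte glucose transporter, went from 4.91, 7.63, 7.44 and 9.20 to 81.7, 75.8, 59.4, 37.4 and 64.3, without overlap (2.94 ± 0.30, limma adjusted p = 4.7e-09). Pck1, the gluconeogenic PEP carboxykinase, rose by 1.00 ± 0.28 (limma adjusted p = 0.0087). Gpd1, glycerol-3-phosphate dehydrogenase, went from 2.01, 5.65, 6.78 and 11.6 to 89.5, 79.9, 95.8, 79.1 and 108 (3.77 ± 0.30, limma adjusted p = 2.6e-11).

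Of 29 genes of bile acid synthesis and transport 13 rose and 4 fell (median 0.69). Cyp8b1, the 12-alpha-hydroxylase that sets the share of cholic acid, had signals of 29.5, 97.5, 26.5 and 10.0 at 12 h and of 229, 307, 681, 305 and 374 at 24 h (3.52 ± 0.65, limma adjusted p = 1.3e-04), beside 273 ± 89.7 at 0 h (SD, n = 5). Slc10a1, the sinusoidal bile acid importer, went from 46.1, 48.4, 86.5 and 74.4 to 414, 229.6, 591, 232 and 388 (2.48 ± 0.33, limma adjusted p = 1.0e-06). The canalicular exporter Abcb11 was at 69.1, 89.5, 167 and 110.4 and then at 499.6, 339, 561, 109.6 and 420.1 (1.70 ± 0.31, limma adjusted p = 9.5e-05), with 1 late library inside the 12 h range and all far below the 0 h mean of 2539 ± 120.0 (SD, n = 5). Nr0b2, the bile acid-induced repressor SHP, was listed at 0 in all 4 libraries of 12 h and at 8.31, 8.42, 4.35, 15.3 and 18.6 at 24 h (limma adjusted p = 9.8e-06). Cyp7a1, the first and limiting step of the classical bile acid pathway, was also listed at 0 in all 4 libraries of 12 h and reached only 0.357, 1.24, 4.49, 0.494 and 0 at 24 h (limma adjusted p = 0.36), against 23.7 ± 22 at 0 h (SD, n = 5).

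**Figure D3:**
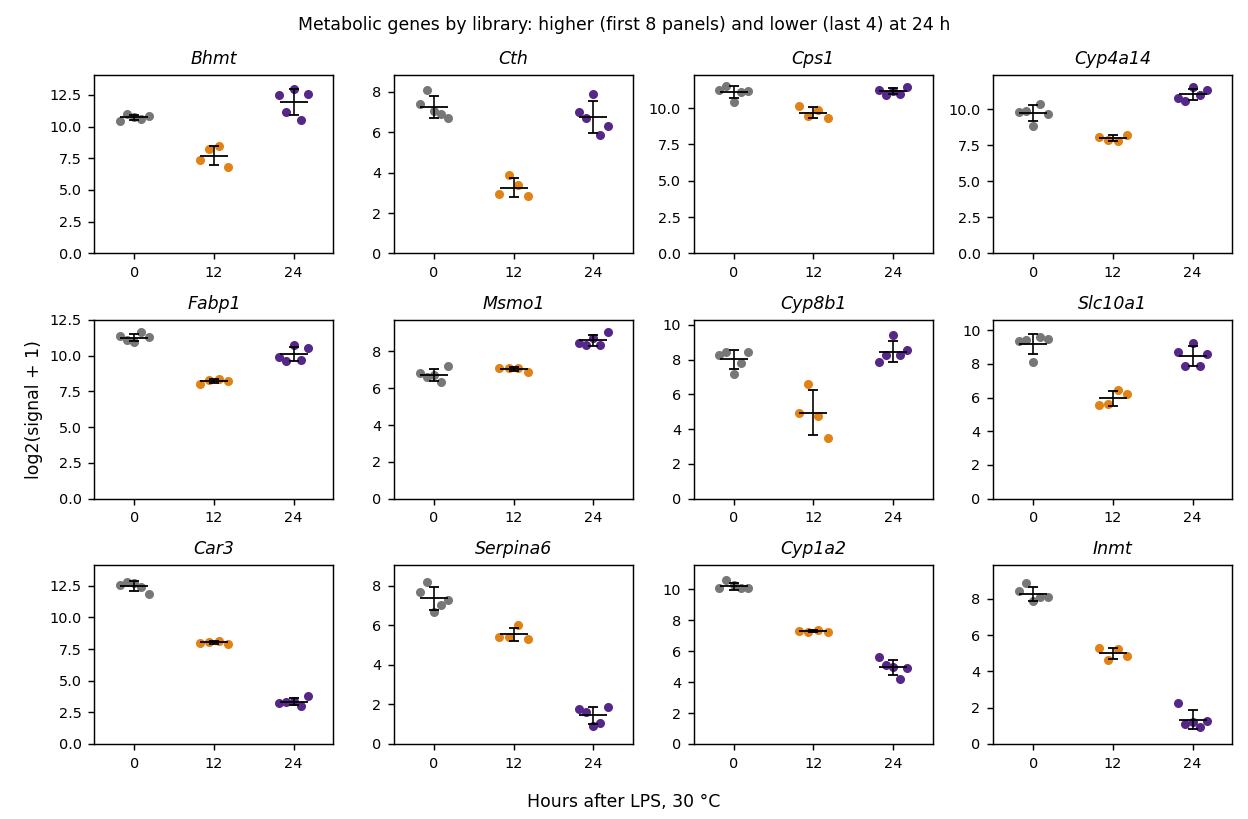
Log2(signal + 1) of 12 hepatocyte genes in each 30 °C library at 0 h (grey, 5 libraries), 12 h (orange, 4) and 24 h (purple, 5), where bars show the mean and SD of each group. The first 8 genes are higher at 24 h than at 12 h, and Car3, Serpina6, Cyp1a2 and Inmt fall at both intervals.

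Other hepatocyte genes went on falling. Drug-metabolising cytochromes P450 of families 1 to 3 divided evenly, with 10 of 37 rising and 10 falling (median 0.21). Cyp1a2, which metabolises caffeine and aromatic amines, had a 0 h mean of 1199 ± 206 (SD, n = 5), signals of 158, 154, 168 and 148 at 12 h and of 47.4, 33.3, 30.4, 17.7 and 29.4 at 24 h (-2.34 ± 0.26, limma adjusted p = 4.2e-08). Cyp3a11, a main steroid and drug hydroxylase, went from 868, 707, 892 and 887 to 339.6, 264, 561, 112 and 177 (-1.73 ± 0.30, limma adjusted p = 6.1e-05). Cyp2c69 fell by 2.12 ± 0.37 (limma adjusted p = 6.1e-05) together with 6 other Cyp2c genes, several of which are close copies that may share reads. Rising members were Cyp2a12 at 1.29 ± 0.16 and Cyp2d9 at 2.44 ± 0.41 (limma adjusted p = 1.5e-07 and 4.1e-05), among others. Of 13 P450 enzymes of fatty acids and sterols, by contrast, 8 rose and none fell (median 1.03).

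Conjugating enzymes and carboxylesterases also divided, with 12 of 51 rising and 12 falling (median 0.00). Ephx2, the soluble epoxide hydrolase, went from 166, 171, 153 and 185 to 706, 498, 755, 599 and 861 (1.99 ± 0.18, limma adjusted p = 3.9e-10). Ces1d, a carboxylesterase, went from 20.8, 14.5, 23.8 and 14.5 to 0.922, 0.363, 0.875, 0.579 and 1.78 (-3.36 ± 0.29, limma adjusted p = 1.4e-10), where 4 of the 5 late libraries were below the signal of 3 reads. Inmt, an indole N-methyltransferase, was at 37.9, 24.2, 36.5 and 28.5 and then at 3.82, 1.11, 1.33, 0.881 and 1.39 (-3.66 ± 0.37, limma adjusted p = 3.9e-09). Its late libraries were likewise below the signal of 3 reads, except replicate 1. Car3, a carbonic anhydrase abundant in hepatocytes, had a 0 h mean of 5796 ± 1348 (SD, n = 5), signals of 254, 260.2, 280.1 and 241 at 12 h and of 8.52, 8.88, 9.51, 7.07 and 12.5 at 24 h. Its libraries agreed closely within each group, and the step was -4.68 ± 0.36 (limma adjusted p = 1.1e-11).

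Plasma protein genes rose more often than they fell. Of 28 carrier proteins that are lowered in the acute phase 15 rose and 2 fell (median 0.49). Serpina1a, alpha-1-antitrypsin, rose by 0.95 ± 0.15 and Azgp1, zinc-alpha-2-glycoprotein, by 1.07 ± 0.14 (limma adjusted p = 9.4e-06 and 7.5e-07); Serpina1a has near-identical copies with which reads may be shared. Alb, albumin, was at 1093, 926, 998 and 999 and then at 1312, 850.1, 1114, 697 and 884 and did not pass the threshold (-0.08, 95% interval -0.38 to 0.22). The 2 that fell were the hormone carriers Serpina6 and Serpina7. Serpina6, which binds corticosteroids in plasma, went from 41.4, 41.2, 63.4 and 39.2 to 2.43, 2.11, 0.848, 1.12 and 2.65 (-4.08 ± 0.36, limma adjusted p = 2.9e-10), from 176 ± 73.3 at 0 h (SD, n = 5). Replicates 3 and 4 of 24 h were below the signal of 3 reads.

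Of 26 complement genes 13 rose and 1 fell (median 0.55), a number that was 7 under quantile normalisation and 9 to 14 when single libraries were left out. C8a, of the membrane attack complex, went from 412, 466, 431 and 470.3 to 1921, 1513, 2724, 1179.5 and 2063 (2.02 ± 0.26, limma adjusted p = 5.0e-07). Of 27 coagulation and fibrinolysis genes 12 rose and 4 fell (median 0.50), with 2 falls without replicate 2 of 12 h. Klkb1, plasma prekallikrein, went from 9.03, 5.16, 9.31 and 5.09 to 146, 46.7, 173, 44.9 and 86.6 (3.46 ± 0.31, limma adjusted p = 4.4e-10), against 334 ± 42.8 at 0 h (SD, n = 5).

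Iron genes changed in both directions, with 8 of 23 rising (5 under quantile normalisation or without replicate 4 of 12 h) and 4 falling. The paralogs of hepcidin, the hormone that closes the iron exporter ferroportin, parted. Hamp2 went from 185, 146, 364 and 167 to 18, 19.3, 25.8, 33.6 and 51.4 (-2.83 ± 0.43, limma adjusted p = 8.0e-06). Hamp, singled out after its values were seen, went from 322, 260.2, 328 and 248 to 609.5, 368, 567, 669 and 982 (1.08 ± 0.31, limma adjusted p = 0.011). Reads may be shared between these close copies.

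Many markers of the sinusoidal cells rose. Of 21 tested markers of the sinusoidal endothelium, the fenestrated lining of the liver capillaries, 10 rose and none fell (median 1.06). Their summed level was 245.9 to 333.7 at 12 h and 461.8 to 628.1 at 24 h, against 835.8 to 942.7 at 0 h. In bulk liver, fewer cells of a type and less RNA per cell cannot be told apart. Clec14a, an endothelial C-type lectin, was at 0, 0, 0 and 0.837 at 12 h and at 18.7, 22.9, 37.7, 33.5 and 27.1 at 24 h (4.60 ± 0.60, limma adjusted p = 6.7e-07). All 4 libraries of 12 h were thus below the signal of 3 reads, and the 0 h mean was 24 ± 6.55 (SD, n = 5). Bmp2, which endothelial cells send to hepatocytes to raise hepcidin, went from 0.983, 11.9, 0.827 and 6.69 to 18.7, 22.9, 15.9, 47 and 16.1 (2.41 ± 0.50, limma adjusted p = 4.8e-04). Aqp1, a water channel, rose by 2.26 ± 0.45 (limma adjusted p = 3.0e-04). The defining markers divided by their medians. Clec4g had medians of 1.81 at 12 h and 7.10 at 24 h, Kdr of 1.83 and 12.1 and Oit3 of 14.6 and 24.3. Lyve1 had medians of 35.2 at 12 h and 26.4 at 24 h, and Cdh5 of 11.4 and 8.64, neither past the threshold. Stab2, below the filter on low values, had medians of 4.88 and 4.16.

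**Figure D4:**
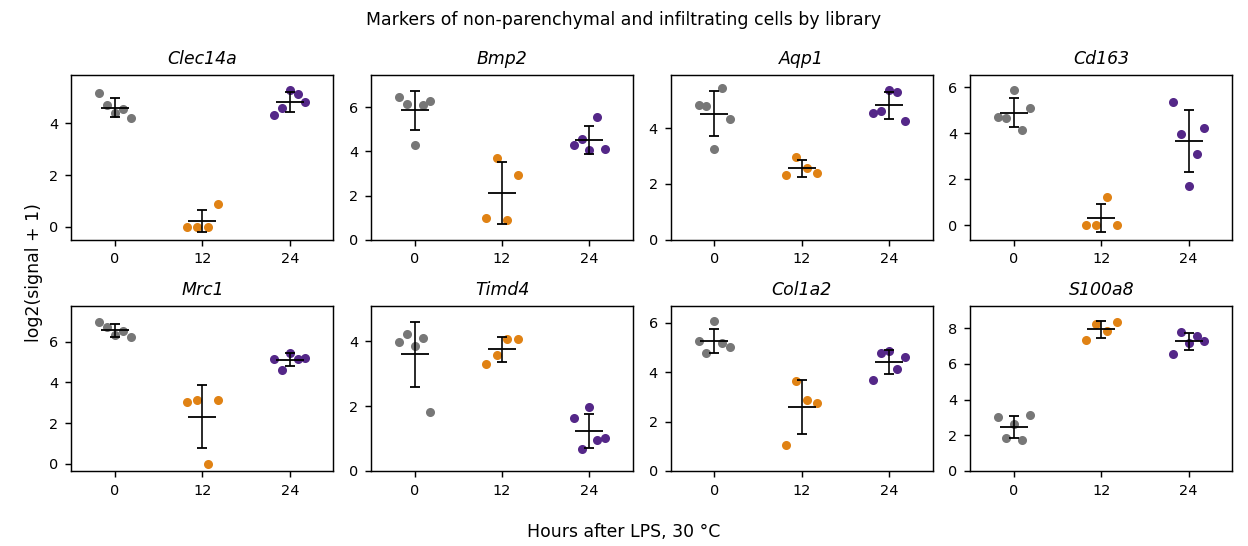
Log2(signal + 1) of 8 cell type markers in each 30 °C library at 0 h (grey, 5 libraries), 12 h (orange, 4) and 24 h (purple, 5), where bars show the mean and SD of each group. The endothelial, Cd163, Mrc1 and Col1a2 panels are lowest at 12 h, Timd4 is lowest at 24 h, and S100a8 is high at both later times.

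Macrophage markers were mixed. Of 17 tested markers of Kupffer cells, the resident macrophages of the liver, and other macrophages 7 rose and 2 fell (median 0.67), and their summed level was 212.5 to 271.3 at 12 h and 301.6 to 408.0 at 24 h. Cd163, the haemoglobin scavenger receptor, was at 0, 0, 1.33 and 0 and then at 39.6, 14.5, 2.33, 7.70 and 18.1 (3.38 ± 0.74, limma adjusted p = 9.8e-04). Mrc1, the mannose receptor, which endothelial cells share, went from 7.23, 7.80, 0 and 7.69 to 34.4, 23.2, 42.6, 35.2 and 36.1 (2.79 ± 0.49, limma adjusted p = 5.9e-05). Timd4, a receptor of resident Kupffer cells, fell from 8.84, 11, 15.7 and 15.9 to 2.08, 0.602, 2.90, 0.958 and 1.01 (-2.51 ± 0.51, limma adjusted p = 4.1e-04). None of its late values exceeded about the signal of 3 reads. The most specific Kupffer marker, Clec4f, had medians of 53.9 at 0 h, 14.4 at 12 h and 7.99 at 24 h, and its step did not pass the threshold.

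Of 15 stellate cell and matrix markers 3 rose and none fell. Lrat, which stores retinol in these cells, was at 4.91, 6.79, 5.79 and 0.837 and then at 12.5, 14.4, 17.4, 20.1 and 21.1 (1.86 ± 0.47, limma adjusted p = 0.0041), and Col1a2, a collagen chain, rose by 1.82 ± 0.35 (limma adjusted p = 2.0e-04). Of 14 neutrophil and monocyte markers 1 rose, Lyz2, and none fell. S100a8 was at 159, 299.7, 233 and 321 and then at 91.4, 219, 144, 187 and 155, against 4.95 ± 2.44 at 0 h (SD, n = 5), and its step missed the threshold (-0.67, limma adjusted p = 0.16). The defining markers of these cells below the filter on low values were not tested. Ly6g had medians of 0.27 at 12 h and 0 at 24 h, and Ccr2 of 1.43 and 0.79. The medians of Ly6c2 were 9.83 and 6.46 and those of Csf3r 3.10 and 2.05. Only Retnlg was higher at 24 h, at 0 to 2.95 at 12 h and at 5.41 to 13.4 at 24 h. Ly6g was listed at 0 in 2 of 4 libraries of 12 h and 4 of 5 of 24 h, and Ccr2 in 1 of 4 and 2 of 5. None of 3 tested lymphocyte markers passed the limma threshold (1 had an unadjusted p under 0.05, and 1 fell with library weights). Among the defining ones, Nkg7 was listed at 0 in 2 of 4 libraries of 12 h and all 5 of 24 h. Cd3e was at 0 in 1 and 3, Cd79a in 1 and 1 and Trbc2 in 0 and 1. Of 5 tested cholangiocyte and progenitor markers 1 rose and 2 fell. Krt19 was at 0 in all 4 libraries of 12 h and 3 of 5 of 24 h, Epcam in 0 and 2, and Krt7 in none. Of 4 red blood cell markers 2 fell, and their summed level was 852.7 to 909.2 at 12 h and 261.0 to 626.2 at 24 h. The beta-globin Hbb-bt went from 121, 106, 135 and 114 to 11.1, 59.9, 81.3, 52 and 47.6 (-1.46 ± 0.40, limma adjusted p = 0.0079). The part of these cell shares in the changes of the other genes was not tested.

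Stress and growth genes changed in both directions. Of 17 genes of the integrated stress response and amino acid synthesis 1 rose and 6 fell (median -0.75), among them Chac1, a glutathione-degrading target of ATF4, which went from 46.2, 63.6, 59.5 and 55.2 to 3.46, 19.9, 14.5, 23 and 20.1 (-1.93 ± 0.47, limma adjusted p = 0.0029). Of 32 genes of the unfolded protein response 6 rose and 2 fell, and Xbp1, one of its transcription factors, fell by 0.88 ± 0.21 (limma adjusted p = 0.0019). Of 19 growth arrest, p53 and survival genes 1 rose and 6 fell (median -0.85). Of 18 heat shock proteins and chaperones 5 rose (3 without any one of replicates 2 and 3 of 12 h and 1, 3 and 5 of 24 h) and 1 fell, and the largest of the rises was Fkbp4, an HSP90 co-chaperone, from 7.42, 7.00, 4.54 and 12.2 to 58.1, 33, 63.7, 21.5 and 47.3 (2.35 ± 0.39, limma adjusted p = 2.6e-05).

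Ribosome genes parted by kind. Of 81 cytosolic ribosomal proteins 47 rose and none fell (median 0.50), a number that was 19 under quantile normalisation, 36 under upper-quartile scaling and 27 to 53 when single libraries were left out. Rpl36 went from 78.6, 52.7, 64 and 66.1 to 115, 178, 197, 117 and 143 (1.16 ± 0.21, limma adjusted p = 1.2e-04); pseudogene copies are numerous in this family. Of 23 ribosome biogenesis genes, by contrast, 5 fell and 1 rose (median -0.39); 2 fell without replicate 2 of 12 h, and 3 with the title numbers as a replicate block or without replicate 1 or 4 of 12 h or 1, 3 or 5 of 24 h. Nop58, of the small nucleolar ribonucleoproteins, went from 225, 278, 254 and 260.0 to 104, 88, 65.8, 115 and 82.4 (-1.49 ± 0.24, limma adjusted p = 1.9e-05). None of 13 S phase genes passed the limma threshold (2 had an unadjusted p under 0.05), and of 10 G2/M genes 1 rose and 1 fell.

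Hormone and clock genes were counted as well. Socs2, a growth hormone target, went from 93, 103, 75.3 and 78.2 to 13.2, 13, 12.5, 30.5 and 11.9 (-2.44 ± 0.30, limma adjusted p = 2.8e-07), while of the 17 genes of the growth hormone and IGF1 axis 2 rose and 2 fell. Of 24 glucocorticoid-responsive genes 2 rose and 6 fell, and of 17 clock genes 1 rose and 2 fell. The 12 and 24 h libraries may differ in the time of day and in feeding, and these cannot be told apart from the time since LPS. Fgf21 and Igfbp1, hormones of the fasting and stressed liver, did not pass the threshold, at -1.14 (95% interval -2.39 to 0.12) and -0.87 (95% interval -1.71 to -0.03). Of 25 hepatocyte transcription factors 3 rose and 3 fell, and Hnf4a, the central one, differed by 0.19 (95% interval -0.17 to 0.54).

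The same step at 22 °C called fewer genes. Between 12 and 24 h, 924 genes changed at 22 °C (10.6%), with 350 rising (4.02%) and 574 falling (6.6%). The difference of the steps, tested as an interaction in limma, was past the threshold for 666 genes (7.65%), being more positive at 30 °C for 503 (5.78%) and more negative for 163 (1.87%). Quantile normalisation gave 442 more positive and 219 more negative, and upper-quartile scaling 422 and 174. No library is shared between the 2 temperatures.

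**Figure D5:**
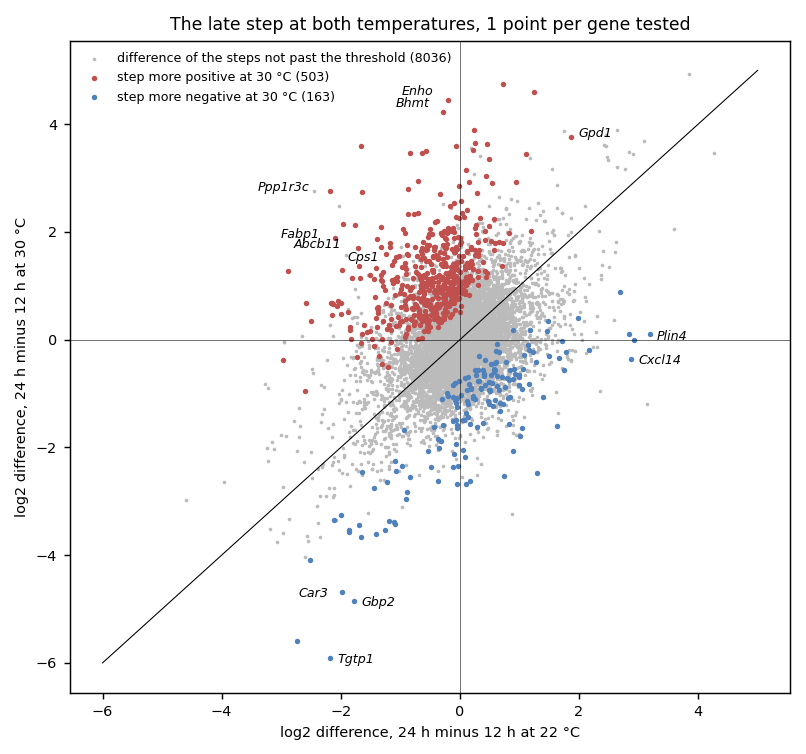
Log2 difference between 12 and 24 h at 22 °C (x axis) and at 30 °C (y axis) for the 8702 genes tested, where the diagonal marks equal steps. Genes whose steps differ past the threshold (limma adjusted p under 0.05) are red when the step is more positive at 30 °C (503) and blue when it is more negative (163), and the red genes are the larger set.

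The metabolic lists held many of the differing genes. The step was more positive at 30 °C for 28 of 54 amino acid genes, 19 of 29 cholesterol genes, 17 of 40 fatty acid oxidation genes, 31 of 77 respiratory chain subunits, 15 of 28 carrier proteins, 12 of 27 coagulation genes and 10 of 26 complement genes. At 22 °C these lists had 3, 1, 2, 1, 0, 0 and 0 rises and, in the same order, 13, 4, 4, 3, 6, 5 and 5 falls. The number of differing respiratory chain subunits was 14 under quantile normalisation, 17 under upper-quartile scaling, 19 with no filter on low values or without replicate 2 of 12 h at 30 °C, and 20 without replicate 5 of 24 h at 30 °C. Quantile normalisation left 6 carrier, 6 coagulation and 6 complement genes. Coagulation genes numbered 7 with no filter on low values and without replicate 4 of 12 h or replicate 3 of 24 h at 30 °C, and complement genes 16 without replicate 5 of 24 h at 22 °C. Cps1 had 22 °C means of 1128 at 12 h and 529 at 24 h, a fall of 1.10 ± 0.23, and the difference of its steps was 2.56 ± 0.33 (limma adjusted p = 4.1e-06). Fabp1 likewise fell at 22 °C, by 2.09 ± 0.27, and rose at 30 °C (difference 3.98 ± 0.39, limma adjusted p = 6.7e-08). Abcb11 rose at 30 °C and fell at 22 °C by 1.70 log2 units (difference 3.40 ± 0.42, limma adjusted p = 1.9e-06). Bhmt had means of 1295 and 1087 at 22 °C (difference 4.51 ± 0.55, limma adjusted p = 1.8e-06).

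The largest differences in the positive direction were Cacna1d at 5.25, Ppp1r3c at 4.95, Enho at 4.64, Bhmt at 4.51 and Dpys at 4.38. Ppp1r3c, a glycogen-targeting phosphatase subunit, was at 0.983, 0.848, 4.13 and 1.67 at 12 h and 33.9, 12.6, 39.1, 2.87 and 25.1 at 24 h at 30 °C, and its means at 22 °C were 6.34 and 0.812. Its 12 h libraries at 30 °C were below the signal of 3 reads, except replicate 3, and replicate 4 of 24 h was about at it. The 22 °C mean at 24 h was below the signal of 1 read (1.07 to 1.35). The largest differences in the negative direction were Olig1 at -3.76, Tgtp1 at -3.73, Susd1 at -3.24, Cxcl14 at -3.23 and Plin4 at -3.08. The call of Susd1 was lost under 13 of the alternatives and that of Olig1 with no filter on low values. Plin4, a lipid droplet coat protein, and Cxcl14, a chemokine, rose at 22 °C, by 3.19 ± 0.52 and 2.88 ± 0.55, beside 0.10 ± 0.55 and -0.35 ± 0.58 at 30 °C (limma adjusted p of the differences = 0.008 and 0.0076).

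Interferon genes fell at both temperatures: 22 of the 23 interferon gamma genes and 26 of the 34 type I genes fell at 22 °C. The fall was larger at 30 °C for 11 of 23 and for 2 of 34, respectively, the latter being 1 to 4 over the alternatives. Among the type I genes 1 had a more positive step at 30 °C. The median difference of the steps was -0.93 for the interferon gamma genes and 0.02 for the type I genes. Gbp2 went from a mean of 1159.8 to 353 at 22 °C (difference of the steps -3.07 ± 0.36, limma adjusted p = 1.1e-06), while for Isg15 the difference of the steps did not pass the threshold (-0.79 ± 0.38, limma adjusted p = 0.24). Cd14 fell at 22 °C from a mean of 1889 to 1007, by less than at 30 °C (difference -2.05 ± 0.40, limma adjusted p = 7.8e-04). Of the sinusoidal endothelial markers 7 of 21 had a more positive step at 30 °C (4 with no filter on low values or without replicate 1 or 3 of 12 h at 30 °C), among them Clec14a (difference 3.35 ± 0.82, limma adjusted p = 0.0077). Among the acute phase genes, Orm2 rose more at 30 °C (1.32 ± 0.35, limma adjusted p = 0.015), a call lost under quantile normalisation (limma adjusted p = 0.097), and Orm1 did not pass the threshold (0.39 ± 0.16, limma adjusted p = 0.16). Of the 5 cold-inducible RNA-binding proteins 2 fell at 30 °C. Rbm3, the best-known of them, was at 276 ± 21.4 and 238 ± 38.3 at 30 °C (SD, n = 4 and 5) and rose at 22 °C by 0.66 ± 0.18 (difference -0.89 ± 0.26, limma adjusted p = 0.032), a difference whose call was lost under 10 of the alternatives (limma adjusted p up to 0.070). Cirbp fell by 1.07 ± 0.38 at 30 °C (limma adjusted p = 0.042), a call lost under 9 of the alternatives.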

How the data were processed

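RNA from mouse liver was sequenced by CEL-Seq2, which reads the 3′ ends of polyadenylated transcripts. The authors deposited 1 table of the whole series with a signal for each of 34829 genes in 36 libraries, named scaled reads per base, per the file headers; 34406 genes had a symbol. Trimmomatic, kallisto and sleuth are named in the submitters' processing notes; their settings, the genome build, the scaling and the use of molecular identifiers were not given in the sources used here. A second deposited signal column, named tpm, summed to 757040 to 1746040 per library and so is not plain TPM. Depth was estimated by taking the most frequent low signal of genes with 1 transcript as 1 read.

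Log2(signal + 1) of the 8702 genes with a mean of at least 5 over all libraries was fitted with limma 3.58.1 in R 4.3.3 (1 mean for each of 8 groups, eBayes with a trend, two-sided, Benjamini-Hochberg over all genes, threshold 0.05). Intervals cover 95%. On simulated data of the same size, limma recovered 38.0% of 100 genes changed by 1 log2 unit and 80.0% of 100 changed by 2, with 5.6% false calls. The simulation drew independent normal noise for each gene and changed far fewer genes than the 1834 called here. Its rates may therefore not carry over to these data. Gene names in the text follow a rule: the 10 largest rises and falls, the 5 members of smallest p of each list, a fixed set of followed genes, and the 5 largest differences of the steps in each direction; members named beside a count of 5 or fewer and Hamp were chosen after their values were seen, and a few genes chosen this way are left unreported. Members and lists were chosen with earlier results of these data known, lists share members, and differences from 0 h share libraries with the step. Promoters were taken from RefSeq (GRCm38.p6), which may not be the authors' build. Every motif was counted in every list with promoter counts, and not all counts are given. A further motif, the gamma-activated site, occurred in 9.55% of all promoters. It occurred in 7 of 14 interferon gamma, 5 of 25 type I and 2 of 18 MHC class I promoters. The counts were 7 of 23 for acute phase, 2 of 19 for cholesterol and 3 of 32 for fatty acid oxidation promoters. Alternatives were another value column, pseudocount, filter, scaling, prior and weights, fits without single libraries and a replicate block. The replicate numbers in the labels showed no pairing of the libraries. Deviations of same-numbered 12 and 24 h libraries correlated at -0.024 to 0.022 by the title numbers and at -0.036 to 0.021 by the description numbers. Over all pairs of 12 and 24 h libraries the range was -0.036 to 0.033.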

Additional observations from a re-analysis of the deposited data

Results flagged for a closer look

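Among the 109 genes named, a single library stood apart from the rest of its group by Dixon's gap test in 25 of 218 gene and time combinations. The limits used give about 1 in 20 by chance only for normally distributed values. The test was run on untransformed signals, some of them near 0, so the count cannot be compared with that rate. At 12 h, replicate 4 was high for Adra1b (5.86), Clec14a (0.837), Cxcl10 (181), Cyp4a31 (4.28) and Xaf1 (48.8) and low for Msmo1 (115). Replicate 3 of 12 h was high for Cd163 (1.33), Emc9 (7.27), Serpina6 (63.4) and Thrsp (93.9), and Mrc1 was listed at 0 there. Replicate 2 of 12 h was low for Gbp2 (550.2) and Cyp3a11 (707), and replicate 1 was low for Rbm3 (244).

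At 24 h, replicate 4 was high for Apoa4 (2298), Bmp2 (47), Insig2 (395) and Socs2 (30.5) and low for Hgd (257). Replicate 5 was high for Tgtp1 (8.84), Cyp2a12 (1993) and Thrsp (28.6), replicate 1 for Cyp4a31 (33.2) and Inmt (3.82), and replicate 3 for Cyp7a1 (4.49). These values are signals, and the cause of each was not tested.

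The step differed between 30 and 22 °C, by the interaction in limma, for 69 of the named genes, and the following values are the step at 30 °C minus that at 22 °C in log2 units. In amino acid and one-carbon metabolism it was more positive at 30 °C for Bhmt 4.51, Cps1 2.56, Cth 4.07, Dpys 4.38, Gldc 1.99 and Hgd 2.48. In fatty acid, ketone and mitochondrial metabolism the values were Acaa2 0.98, Atp5o 1.19, Bdh1 2.24, Cyp4a10 2.86, Cyp4a14 2.60, Cyp4a31 3.18, Fabp1 3.98, Fads1 1.88 and Ndufc1 1.50. In cholesterol and bile acid genes they were Abcb11 3.40, Cyp8b1 3.30, Msmo1 2.26, Nr0b2 2.32 and Slc10a1 2.64, of which Nr0b2 was listed at 0 in every 12 h library at 30 °C, so that its value depends on the pseudocount. Glucose and glycogen genes stood at Gpd1 1.91, Pck1 1.37, Ppp1r3c 4.95 and Slc2a2 3.64. Secreted liver proteins stood at Azgp1 1.21, C8a 2.18, Enho 4.64, Hamp 2.39, Klkb1 4.29, Orm2 1.32 and Serpina1a 1.24. Other hepatocyte genes with a more positive step were Adra1b 3.65, Cacna1d 5.25, Cyp2a12 1.33, Emc9 4.11, Ephx2 2.21 and Fkbp4 2.31. Sinusoidal, macrophage and stellate markers stood at Aqp1 2.27, Bmp2 2.28, Clec14a 3.35, Col1a2 1.79, Lrat 3.26 and Mrc1 3.66.

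The step was more negative at 30 °C for the interferon genes Cxcl9 -0.73, Gbp2 -3.07, Gbp3 -1.70, Gbp7 -1.67, Igtp -2.20, Iigp1 -1.24, Psmb10 -1.72, Tgtp1 -3.73 and Xaf1 -1.41. Other inflammatory genes stood at Cd14 -2.05, Cxcl14 -3.23, Hif1a -1.30 and Steap4 -1.16. Hepatocyte genes with a more negative step were Abca1 -1.05, Car3 -2.70, Ces1d -2.18, Cyp1a2 -1.37, Hamp2 -1.95, Inmt -1.999, Plin4 -3.08, Scd1 -2.25 and Serpina6 -1.57. The remaining ones were Nop58 -1.57, Olig1 -3.76, Rbm3 -0.89 and Susd1 -3.24. Among all these differences, those of Bmp2, Ces1d, Col1a2, Cxcl9, Cyp8b1, Gldc, Hamp2, Inmt, Nr0b2, Olig1, Orm2, Pck1, Rbm3, Serpina6, Steap4, Susd1 and Xaf1 did not pass the threshold under every alternative.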

How the results depend on the processing

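No named gene past the threshold changed direction under the alternatives run. Of the list medians given, those of the acute phase genes (0.40, and -0.0093 under quantile normalisation) and of de novo lipogenesis (-0.18, and 0.40 among genes with a mean of at least 20) changed sign. Genes changed in the 30 °C step numbered 1408 to 1865 when single libraries were left out, with 798 to 1029 rises and 610 to 836 falls. The 22 °C step had 664 to 1088 calls (247 to 416 rises, 409 to 672 falls), and the difference of the steps had 530 to 797 (413 to 581 more positive, 117 to 216 more negative). Fitted on the libraries of the contrast alone, the 22 °C step had 603 calls and 209 rises. With library weights, 267 genes had a more negative step at 30 °C. Leaving out the 30 °C, 4 h library of replicate 4, which stands apart in the fit, kept 1813 of the 1834 calls. The signed shift of single genes under quantile normalisation had a median of 0.031 log2 units, in which moves up and down cancel. The share of calls that rose ran from 52.9% to 57.2% over the alternatives.

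With the replicate number of the titles as a block, 1649 genes changed at 30 °C (919 rises, 730 falls), 923 at 22 °C and 621 in the difference; with the numbers of the descriptions, 1840, 927 and 668. The 2 kinds of number differ for 2 of the 12 h libraries, and neither showed a pairing of the samples. Among named genes, 92 of 95 calls of the 30 °C step held under every alternative, the exceptions being Cirbp, Hp and Saa1, and 52 of 69 calls of the difference did. The 17 lost in at least 1 alternative were Serpina6 and Nr0b2 (19 alternatives each), Gldc (17), Steap4 (15), Susd1 (13), Hamp2 and Xaf1 (12 each), Bmp2 and Cxcl9 (11 each), Rbm3 (10), Cyp8b1 and Pck1 (3 each) and Ces1d, Col1a2, Inmt, Olig1 and Orm2 (1 each). With the title numbers as a block, Serpina6, Hamp2 and Xaf1 were lost. The highest limma adjusted p was 0.55 for Serpina6 and 0.18 for Inmt, and 0.053 to 0.14 for the others. The cause of these losses was not tested. List counts with few calls also moved: the clock genes that fell numbered 1 to 6 and the cytokines that rose 1 to 3. Genes below a signal of 1.51 to 4.35, the worth of 3 reads, are limited by depth.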

Other observations

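Several genes with a wide range at 24 h had their lowest or highest values in the same pair of libraries, replicates 2 and 4. Across replicates 1 to 5, Bhmt was at 5820.0, 2265, 7879, 1460.3 and 6117, Klkb1 at 146, 46.7, 173, 44.9 and 86.6, Adra1b at 66.5, 23.5, 66.7, 24 and 45.2 and Enho at 47.8, 16.2, 42, 19.2 and 48.8, each lowest in those 2 libraries. Igfbp1, at 462, 1674, 368, 2218 and 580.1, Cd14, at 159, 350.1, 212, 764 and 162, and Fgf21 were highest or among the highest there, with Fgf21 at 4.16, 11.4, 4.35, 18.2 and 12.1. The pattern was noticed in these values and was not tested. The estimated depths of the 5 libraries were 1452000, 1613000, 710000, 1057000 and 2295000 reads.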
